A study of Homo sapiens with 6 samples.

Results

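The mRNAs of 10 secreted immune signals were followed in the established cell line MDA-MB-231, whose source was a human breast cancer of the triple-negative kind, meaning that it lacks HER2 amplification and the receptors for oestrogen and progesterone. They are the chemokines CXCL1, CXCL2, CXCL3, CXCL8, CXCL16, CCL2, CCL5 and CCL20 and the colony-stimulating factors CSF2 and CSF3, chosen by gene symbol from the 58735 genes of the deposited count table. All 10 were found, and 9 had enough counts to be tested among 14975 genes. By treatment label there were 3 Control libraries and 3 PM2.5 libraries (PM2.5 is fine airborne particulate matter), with RNA taken after 48 h of exposure. Particle dose, particle source and the Controls' vehicle were not given in the sources used here. Both groups are the same cell line, the design text calls the libraries biological replicates without saying how separate the cultures were, and p-values therefore measure the spread between these libraries, which may be technical.

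Chemokines are small secreted proteins that draw leukocytes along a gradient by binding G protein-coupled receptors on them. CXCL1, CXCL2, CXCL3 and CXCL8 share the CXCR2 receptor and chiefly attract neutrophils, CCL2 and CCL5 attract monocytes and T cells, CCL20 attracts lymphocytes and dendritic cells through CCR6, and CXCL16 is made as a membrane protein that is cleaved to a soluble ligand of CXCR6. CSF2 (GM-CSF) and CSF3 (G-CSF) drive the production and survival of granulocytes, and CSF2 also of macrophages. Tumour cells make many of these signals, whose genes are classically switched on by NF-kB together with AP-1 and C/EBP factors and whose short-lived mRNAs carry AU-rich elements.

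The chromosome 4 members are shown first by sequence, because CXCL2 and CXCL3 fell while their close copy CXCL1 did not pass the test and CXCL8 rose. The following stretches are the 250 bases upstream of the RefSeq start of each gene (GRCh38.p14, 5′ to 3′ on the gene's own strand), at chr4:73869143-73869392 on the plus strand for CXCL1, chr4:74099196-74099445 on the minus strand for CXCL2, chr4:74038690-74038939 on the minus strand for CXCL3 and chr4:73740319-73740568 on the plus strand for CXCL8. Capitals mark GGAATTTCC, the core of a classical NF-kB site, and TGANTCA, the AP-1 site.
CXCL1: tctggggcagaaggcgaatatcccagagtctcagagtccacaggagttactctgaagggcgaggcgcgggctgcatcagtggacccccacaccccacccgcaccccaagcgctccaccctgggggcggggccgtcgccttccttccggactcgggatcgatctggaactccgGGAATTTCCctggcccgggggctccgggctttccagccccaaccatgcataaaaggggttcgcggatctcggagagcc
CXCL2: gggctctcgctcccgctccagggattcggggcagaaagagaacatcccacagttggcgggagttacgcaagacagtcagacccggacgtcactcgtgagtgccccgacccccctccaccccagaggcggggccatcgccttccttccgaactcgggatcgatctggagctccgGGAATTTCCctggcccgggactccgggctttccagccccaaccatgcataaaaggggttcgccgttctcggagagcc
CXCL3: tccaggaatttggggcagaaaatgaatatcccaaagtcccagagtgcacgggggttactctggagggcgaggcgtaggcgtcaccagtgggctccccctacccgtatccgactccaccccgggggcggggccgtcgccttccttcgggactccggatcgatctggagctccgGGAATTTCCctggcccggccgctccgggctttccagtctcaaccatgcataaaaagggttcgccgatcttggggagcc
CXCL8: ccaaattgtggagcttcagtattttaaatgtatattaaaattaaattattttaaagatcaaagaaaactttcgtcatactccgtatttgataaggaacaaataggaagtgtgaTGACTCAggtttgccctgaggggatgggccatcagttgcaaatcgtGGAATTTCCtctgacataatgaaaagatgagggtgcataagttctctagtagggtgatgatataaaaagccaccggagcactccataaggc
The NF-kB core lies 78 bases upstream of the RefSeq start in CXCL1 and CXCL3, 77 in CXCL2 and 91 in CXCL8. The deposited bounds of CXCL2, CXCL3 and CXCL8, given below, reach further upstream than the RefSeq start. In CXCL2 and CXCL3 the marked NF-kB core therefore lies inside the deposited gene bounds. Over the windows of 300 bases (250 before to 50 after the start), CXCL1 and CXCL3 were 82.5% identical, CXCL2 and CXCL3 73.8% and CXCL1 and CXCL2 71.9%, whereas CXCL8 was 45.2% to 47.9% identical to these 3 genes. Of the 10 genes 6 were matched in the RefSeq promoter table, namely these 4, CCL20 and CSF2, and CXCL16, CCL2, CCL5 and CSF3 were not. GGAATTTCC on either strand was found in 4 of these 6, all on chromosome 4, and in 0.461% of 35116 promoter windows. The looser NF-kB consensus (GGG and CC separated by any 5 bases), which overlaps the core in CXCL1, CXCL2 and CXCL3, was found in all 6 and in 58.7% of windows. TGANTCA was found in CXCL8 alone (7.71% of windows), and the exact pattern TTGCNNAA, a C/EBP motif, in CXCL2 alone (10.5% of windows). CXCL8 holds ttgcaaat just upstream of its NF-kB core, which departs from that pattern in the last base only. The search therefore does not show that CXCL8 lacks a C/EBP site. A match describes letters in a window and is not evidence of binding.

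Each library held between 31846136 and 34691009 counts. Levels are in CPM, counts per 1e6 after TMM library scaling, and where a gene had 0 counts its level could still reach 3 counts, which is 0.0863 to 0.098 CPM by library (counting error only). Control replicate 3 stood apart from the other Controls on the second principal component, which held 15% of the variance (score -36.94 against 16.48 and 14.83), so results are given with and without it where it moves them. The antioxidant enzyme HMOX1, which particulate matter is known to induce, fell from 812 ± 58.1 to 51.2 ± 6.0 CPM (SD, n = 3 each). HMOX1 thus runs against its known response, and whether the labels Control and PM2.5 are exchanged was not tested. Directions are given for the libraries as labelled, and every one of them would reverse if the labels were exchanged. Of 6 mesenchymal-like markers of the line, all 6 were tested, 2 were called higher, 1 lower and 3 not called. Over all tested genes 16.1% were called higher and 15.8% lower. Among these markers, vimentin (VIM) was at 2289 ± 319.8 and 2680.3 ± 20.0 CPM and did not pass the test. The 8 listed luminal markers summed to 434 to 539 CPM in Control and 563 to 674 CPM in PM2.5 libraries. They were listed as low in this line, but most of the sum came from KRT8, which was not low. The oestrogen receptor ESR1 had 0 counts. All 3 tested luminal markers were called, the keratin KRT8 higher (433 ± 67.0 and 572 ± 50.04 CPM) and ERBB2 (64.9 ± 6.99 and 43.1 ± 5.51 CPM) and GATA3 (5.85 ± 0.987 and 4.03 ± 0.414 CPM) lower. The leukocyte markers PTPRC, CD3E, MS4A1 and MPO had 0 counts in all 6 libraries. The 12 leukocyte markers together summed to 2.08 to 2.81 CPM in Control and 3.68 to 5.51 CPM in PM2.5 libraries, and 3 of 3 tested ones (CD14, ITGAM and CD3D, chosen after their values were seen) were higher in PM2.5. The 6 endothelial markers summed to 39.8 to 52.6 and 54.2 to 58.8 CPM, nearly all from PECAM1, with CDH5, TEK and CLDN5 at 1 to 4 counts in all. The 7 fibroblast markers summed to 24.8 to 30.99 and 27.5 to 31.1 CPM with DCN and LUM at 0. What part other cells have in the chemokine values was not tested beyond these levels.

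Of the 9 tested genes 2 rose (CXCL8 and CCL5), 3 fell (CXCL2, CXCL3 and CSF3) and 4 did not pass the test (CXCL1, CXCL16, CCL20 and CSF2), at an adjusted p under 0.05 in edgeR (quasi-likelihood test, Benjamini-Hochberg over all tested genes). Over all tested genes 16.1% were called higher, 15.8% lower and 31.9% in either direction. The libraries of both groups did not overlap for 6 of the 9 genes, 3 in each direction, where over all tested genes 21.4% did not overlap and were higher, 22.9% lower and 44.3% either. The neutrophil-attracting chemokines moved in opposite directions, with CXCL8 higher, CXCL2 and CXCL3 lower and CXCL1 not called.

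**Figure D1:**
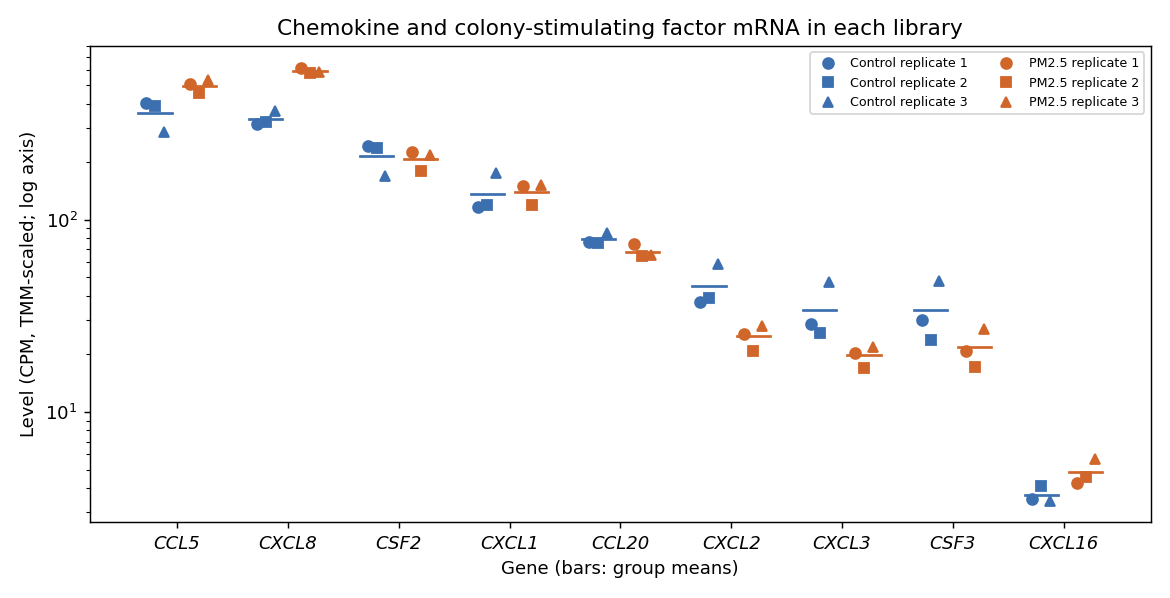
Level of the 9 tested genes in each library (CPM with TMM scaling, log axis), with Control in blue, PM2.5 in orange, 1 symbol per replicate number and bars at the group means. CXCL8, CCL5 and CXCL16 sit higher in every PM2.5 library than in every Control library, and CXCL2, CXCL3 and CCL20 lower. Of these, CXCL16 and CCL20 did not pass the test. Control replicate 3 (blue triangles) departs from the other 2 Controls for most genes.

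CXCL8 (interleukin 8), the main neutrophil attractant of many tumour cells, was the most changed of the group by adjusted p (GRCh38 chromosome 4, bases 73740506 to 73743716, plus strand, ENSG00000169429). CXCL8 was at 316, 324 and 368 CPM in replicates 1 to 3 of Control and 619, 582 and 588 CPM in PM2.5 replicates 1 to 3. Every PM2.5 library was above every Control library, and the groups are far apart relative to their spread. The log2 change was 0.83 ± 0.10 (n = 3 each, error as SE, adjusted p = 9.39e-06 in edgeR, quasi-likelihood with Benjamini-Hochberg, 95% interval 0.62 to 1.03). The change was 0.90 without Control replicate 3. None of its transcripts' 50-base words occurs in another gene's annotated transcripts.

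CXCL2 and CXCL3, which encode the growth-regulated chemokines beta and gamma, were both lower in PM2.5. CXCL2 (chromosome 4, bases 74097035 to 74099293, minus strand, ENSG00000081041) was at 37.3, 38.9 and 58.8 CPM in Control and 25.5, 20.7 and 28.1 CPM in PM2.5 replicates 1 to 3. The groups did not overlap, and the highest value was that of Control replicate 3. CXCL2 fell 1.82-fold (log2 change -0.86 ± 0.16, error as SE, adjusted p = 0.000647 in edgeR, quasi-likelihood with Benjamini-Hochberg), and by -0.63 without Control replicate 3 (adjusted p = 0.00225). CXCL3 (chromosome 4, bases 74036589 to 74038807, minus strand, ENSG00000163734) was at 28.7, 25.7 and 47.4 CPM in Control and 20.3, 17.0 and 21.8 CPM in PM2.5. Here too the groups did not overlap and Control replicate 3 was highest. CXCL3 fell 1.72-fold (log2 change -0.78 ± 0.18, SE, adjusted p = 0.00387 in the same edgeR fit), and the change shrank by more than 1.5 times, to -0.47, without Control replicate 3 (adjusted p = 0.014).

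CXCL1, the growth-regulated chemokine alpha (chromosome 4, bases 73869393 to 73871242, plus strand, ENSG00000163739) did not pass the test. It was at 116, 119 and 175 CPM in Control and 149.8, 119 and 151 CPM in PM2.5 replicates 1 to 3. Control replicate 3 was the highest of all 6 libraries, and the groups overlapped. The log2 change was 0.04 ± 0.14 (SE, adjusted p = 0.872 in the edgeR fit), with a 95% interval from -0.26 to 0.33. Without Control replicate 3 it was 0.25 (adjusted p = 0.0799), still short of the threshold.

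Because CXCL1, CXCL2 and CXCL3 are alike, reads could be split between them by the counting, whose settings are not stated in the sources used. Of the 50-base words in their annotated transcripts, 4.81% of those of CXCL1, 12.5% of CXCL2 and 6.01% of CXCL3 also occur in one of the other 2 genes. Summed into 1 feature, the 3 genes were at 182, 183 and 281 CPM in Control and 196, 156 and 201 CPM in PM2.5 replicates 1 to 3. That sum fell short of the threshold (log2 change -0.22 ± 0.15, SE, adjusted p = 0.264 in the edgeR fit), and without Control replicate 3 its change was 0.01. CXCL1 made up most of the sum, with a mean of 136 of 215 CPM in Control and 140 of 184 CPM in PM2.5. The sum therefore mostly follows CXCL1 and cannot show whether reads of CXCL2 and CXCL3 were assigned to another copy.

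**Figure D2:**
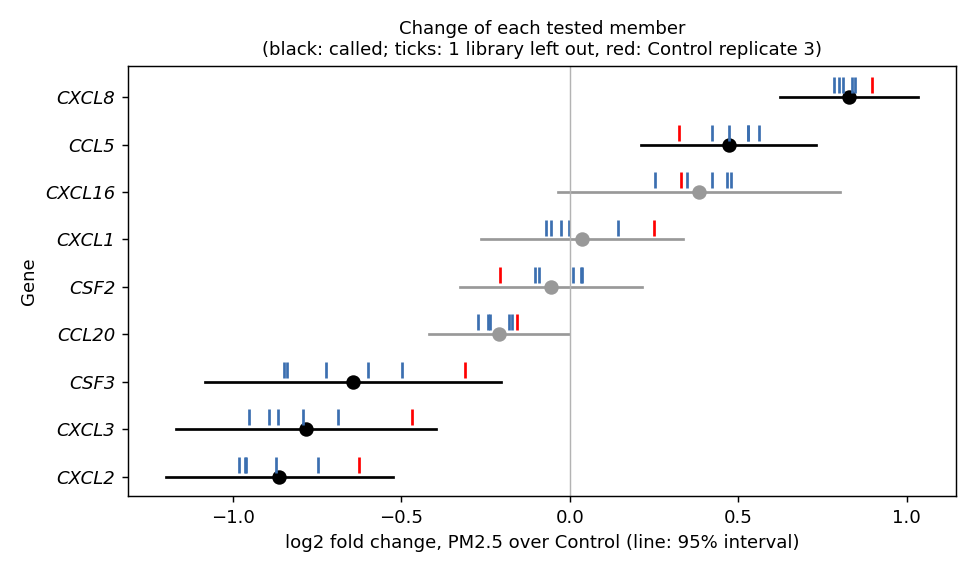
Log2 fold change of PM2.5 over Control for each tested gene (dot) with its 95% interval (line), called genes in black and others in grey. Ticks above each line are the values with 1 library left out, in red for Control replicate 3, where CSF3 moves from -0.64 to -0.31 and CXCL8 from 0.83 to 0.90.

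Ratios of 2 genes' counts within a library do not depend on library scaling, and were compared for all 36 pairs of the 9 genes. For 23 pairs the ratios of the Control libraries did not overlap those of the PM2.5 libraries, which is 63.9% of them. Over all 110536146 pairs of the 14869 tested genes with counts in every library, the share was 43.1%, and pairs share genes, so the 36 are not independent. With 3 libraries a group the exact two-sided permutation test cannot go below 0.10, and its smallest value adjusted over the 36 pairs was 0.157, so no pair passes. The pairs described next were chosen after their values were seen. CXCL1 had 3.11, 3.05 and 2.97 counts per count of CXCL2 in replicates 1 to 3 of Control and 5.88, 5.72 and 5.38 in PM2.5 (exact permutation p = 0.1, adjusted 0.157). Control replicate 3 lay beside the other Controls in this ratio, although its levels of both genes were the highest of its group. The ratio was 1.86-fold higher in PM2.5, and 1.84-fold higher without Control replicate 3. CXCL2 had 1.30, 1.52 and 1.24 counts per count of CXCL3 in Control and 1.26, 1.22 and 1.29 in PM2.5, and these values overlapped (exact permutation p = 0.4, adjusted 0.45).

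The T-cell and monocyte attractant CCL5 and the growth factor CSF2 likewise kept a narrow ratio among the Controls, of 1.68, 1.66 and 1.69, against 2.26, 2.55 and 2.46 in PM2.5 (exact permutation p = 0.1, adjusted 0.157). Both genes were at their lowest Control level in replicate 3, in which the ratio was as in the other Controls. CXCL8 had 4.14, 4.28 and 4.33 counts per count of CCL20 in Control and 8.26, 9.005 and 9.03 in PM2.5, a 2.06-fold difference and 2.08-fold without Control replicate 3 (exact permutation p = 0.1, adjusted 0.157).

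**Figure D3:**
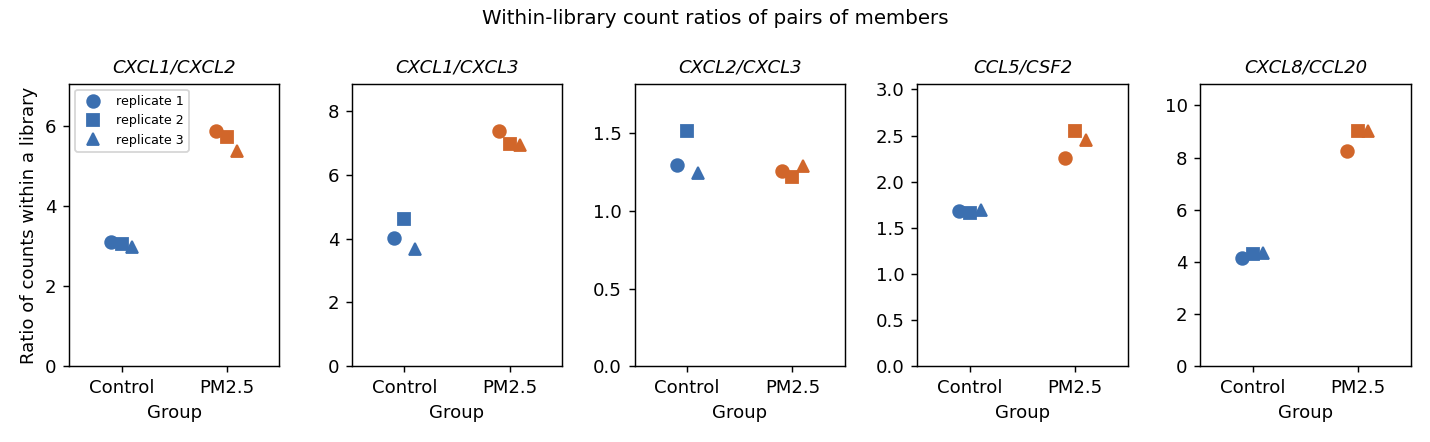
Ratio of counts of 2 genes within each library for 5 pairs chosen after their values were seen, Control in blue and PM2.5 in orange, 1 symbol per replicate number. The CXCL1 to CXCL2 ratio is 2.97 to 3.11 in Control and 5.38 to 5.88 in PM2.5, whereas the CXCL2 to CXCL3 ratio overlaps between groups.

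CXCL16, the membrane-anchored ligand of CXCR6, was the scarcest of the tested genes. The gene (chromosome 17, bases 4733526 to 4739922, minus strand, ENSG00000161921) was at 3.53, 4.13 and 3.45 CPM in Control and 4.26, 4.58 and 5.65 CPM in PM2.5 replicates 1 to 3. Each PM2.5 library was above each Control, but the margin is small beside the spread at 108 to 194 counts per library. The log2 change of 0.38 ± 0.20 did not pass the test (SE, adjusted p = 0.152 in the edgeR fit, 95% interval -0.03 to 0.80). Exons of MED11 cover 3.04% of its exonic bases.

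CCL5 (RANTES) (chromosome 17, bases 35871491 to 35880793, minus strand, ENSG00000271503) rose. Its level was 405, 389 and 285 CPM in Control and 505, 459 and 531 CPM in PM2.5 replicates 1 to 3. The groups did not overlap, and Control replicate 3 was the lowest library. CCL5 rose 1.39-fold (log2 change 0.47 ± 0.12, error as SE, adjusted p = 0.00803 in edgeR, quasi-likelihood with Benjamini-Hochberg), and by 0.32 on the log2 scale without Control replicate 3 (adjusted p = 0.00742). Of the 50-base words of its annotated transcripts 15.2% occur in transcripts of other genes, spread over 554 of them.

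CCL20 (chromosome 2, bases 227805739 to 227817564, plus strand, ENSG00000115009) was at 76.2, 75.6 and 85.1 CPM in Control and 74.9, 64.7 and 65.1 CPM in PM2.5 replicates 1 to 3. The groups did not overlap, but PM2.5 replicate 1 lay beside Control replicate 2. The log2 change of -0.21 ± 0.10 did not pass the test (SE, adjusted p = 0.115 in the edgeR fit, 95% interval -0.42 to -0.003 before adjustment). CCL2, the monocyte attractant (chromosome 17, bases 34255218 to 34257203, plus strand, ENSG00000108691), had 4 counts in Control replicate 2 and 0 in the other 5 libraries and was not tested.

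CSF2 (chromosome 5, bases 132073790 to 132076170, plus strand, ENSG00000164400) had the highest mean level per length of the 10 genes in Control. On the CPM scale it was at 241, 235 and 169 in Control and 224, 179.8 and 216 in PM2.5 replicates 1 to 3. The groups overlapped fully, with Control replicate 3 lowest. The log2 change was -0.06 ± 0.13 (SE, adjusted p = 0.771 in the edgeR fit, 95% interval -0.33 to 0.21), and -0.21 without Control replicate 3 (adjusted p = 0.105).

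CSF3 (chromosome 17, bases 40015361 to 40017813, plus strand, ENSG00000108342) was at 29.9, 23.6 and 47.7 CPM in Control and 20.7, 17.1 and 27.1 CPM in PM2.5 replicates 1 to 3. PM2.5 replicate 3 lay above Control replicate 2, and Control replicate 3 was well above all others. The log2 change was -0.64 ± 0.21 (n = 3 each, error as SE, adjusted p = 0.0263 in edgeR, quasi-likelihood with Benjamini-Hochberg). The call was lost without Control replicate 3 (log2 change -0.31, adjusted p = 0.187), PM2.5 replicate 1 (adjusted p = 0.072) or PM2.5 replicate 2 (adjusted p = 0.119), with total-count scaling (adjusted p = 0.0732) and with DESeq2 (adjusted p = 0.186).

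Within the Control group, CXCL1, CXCL2, CXCL3, CXCL8, CCL20 and CSF3 were higher in replicate 3 than in both other Controls. CCL5, CSF2 and CXCL16 were lower there, CXCL16 only slightly (3.45 against 3.53 and 4.13 CPM). The share of all tested genes for which replicate 3 was the highest or lowest Control was not computed.

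To compare genes with each other, counts were divided by gene length and scaled to the same sum in each library (TPM). In Control the order of mean levels was CSF2 (859 ± 108 TPM, SD, n = 3), CCL5 (749 ± 90.3), CXCL8 (471 ± 73.5), CXCL1 (338 ± 107), CCL20 (158 ± 21.9), CXCL2 (96.4 ± 32.9), CXCL3 (49.3 ± 20.8), CSF3 (49.0 ± 21.7), CXCL16 (4.20 ± 0.355) and CCL2. Neighbours overlapped for CSF2 with CCL5, CXCL8 with CXCL1, and CXCL3 with CSF3, and did not overlap elsewhere among the first 9. In PM2.5 the order was CCL5 (1173 ± 48.3 TPM), CXCL8 (934 ± 33.1), CSF2 (933 ± 80.5), CXCL1 (383 ± 39.3), CCL20 (152 ± 12.2), CXCL2 (58.6 ± 7.03), CSF3 (34.5 ± 7.11), CXCL3 (31.6 ± 2.95) and CXCL16 (6.15 ± 0.822), with overlap of CXCL8 with CSF2 and of CSF3 with CXCL3. CXCL8 and CSF2 were thus apart in Control and overlapped in PM2.5 on this per-length scale.

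CXCL1, CXCL2, CXCL3 and CXCL8 lie within 358.8 kb of chromosome 4 that hold 9 protein-coding genes, the others being CXCL6, PF4V1, PF4, PPBP and CXCL5. Of these 9 genes 5 were tested. CXCL6 and PF4V1 had 0 counts in all libraries, PPBP and CXCL5 had 30 and 54 counts over the 6 libraries, and PF4 (platelet factor 4) was at 0.822 ± 0.116 and 1.25 ± 0.320 CPM and did not pass the test. Of the 5 nearest protein-coding genes on each side, 5 of 10 were tested, and EREG, which encodes the EGF receptor ligand epiregulin, was the one called. EREG was at 221, 208 and 321 CPM in Control and 139, 146 and 126 CPM in PM2.5 replicates 1 to 3, and the log2 change was -0.87 ± 0.14 (SE, adjusted p = 0.000159 in the edgeR fit). Its neighbour AREG (amphiregulin) was at 430.2 ± 51.2 and 449 ± 16.7 CPM and did not pass the test. EREG and AREG were chosen after their values were seen.

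**Figure D4:**
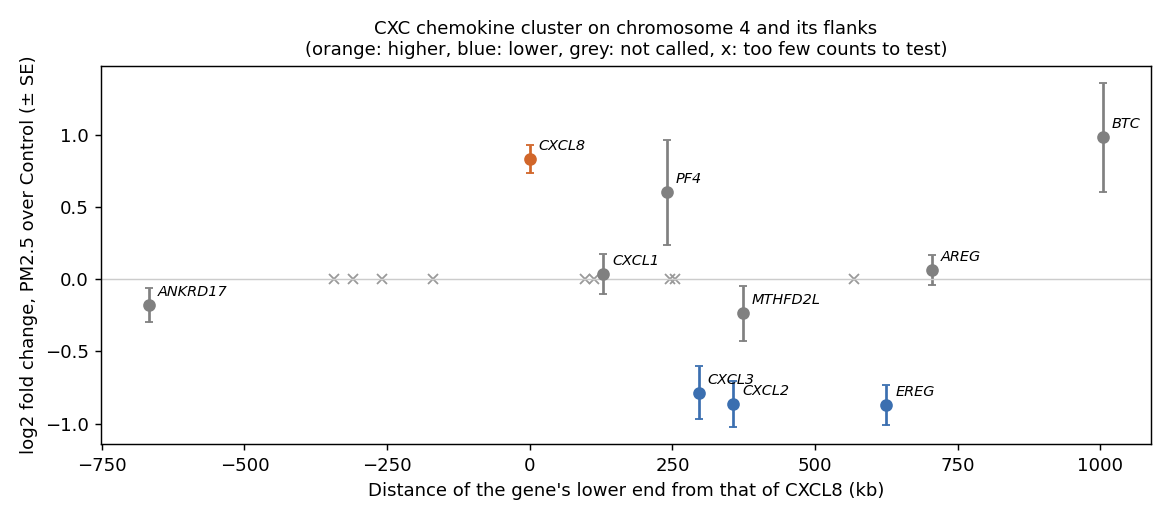
Log2 fold change (± SE) of the protein-coding genes of the CXC chemokine cluster and its flanks against distance in kb from CXCL8, with higher genes in orange, lower in blue, uncalled in grey and crosses at 0 for genes too scarce to test. CXCL8 is at 0.83 and CXCL3, CXCL2 and EREG are at -0.78, -0.86 and -0.87.

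The genes most like each called one were sought by the distance between their log2 CPM profiles over the 6 libraries, each centred on its mean, among 12652 other tested protein-coding genes. CXCL2 was the third nearest to CXCL3 (distance 0.255), after KCTD18 (0.227) and PIGM (0.243). The nearest to CXCL2 were TMEM86A (0.21) and TECPR2 (0.228). For CXCL8 they were NFE2L3 (0.115), LRIG1 (0.124) and COL8A1 (0.138), for CCL5 EFHD1 (0.0553), RHOC (0.0714) and MTSS1L (0.111), and for CSF3 TMEM187 (0.249), RTL8B (0.297) and ZFP41 (0.297).

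Receptors for these ligands were scarce in the cells. CXCR1, CCR6 and CSF3R had 0 counts in all libraries, CXCR2 and CCR2 had 2 counts each and CSF2RB, the signalling chain of the CSF2 receptor, had 12 over the 6 libraries. The CSF2-binding chain CSF2RA was measured at 12.8 ± 1.39 and 12.2 ± 1.58 CPM and CXCR6 at 0.291 ± 0.173 and 0.549 ± 0.101 CPM (SD, n = 3 each), and neither passed the test. Of 23 chemokine receptors 5 were tested, 1 rose and 1 fell (median log2 change -0.50, all tested genes -0.01). That median is the value of a scarce gene that was not called, CCR10 (0.793 ± 0.360 and 0.554 ± 0.209 CPM, log2 change SE 0.47). CCRL2, an atypical receptor that presents chemoattractant, fell by 0.66 ± 0.19 on the log2 scale, a call lost without Control replicate 1 (adjusted p = 0.0505 in edgeR) or PM2.5 replicate 2 (0.0817). ACKR3, a scavenging receptor, rose by 0.48 ± 0.17, but that call was lost in 7 of 13 alternatives, among them each PM2.5 library left out (adjusted p from 0.0503 to 0.148 in edgeR).

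Of 36 other chemokine ligands 18 had 0 counts and 8 were tested, of which 1 rose and 2 fell (median log2 change -0.0045). The number that rose was 2 without Control replicate 1 or PM2.5 replicate 1, and 3 with no low-count filter. CCL3, a macrophage inflammatory protein that attracts leukocytes, was at 107, 96.7 and 87.0 CPM in Control and 25.01, 21.8 and 26.5 CPM in PM2.5 replicates 1 to 3. The groups were well apart, and the log2 change was -1.99 ± 0.11 (n = 3 each, error as SE, adjusted p = 1.79e-09 in edgeR, quasi-likelihood with Benjamini-Hochberg). CCL3 has near-identical copies, so its own level is uncertain. CX3CL1 (fractalkine), like CXCL16 a membrane-anchored chemokine, rose from 5.38 ± 1.146 to 21.1 ± 2.22 CPM (log2 change 1.97 ± 0.17), and the interferon-induced CXCL10 fell from 20.4 ± 1.12 to 12.8 ± 1.22 CPM. These 3 calls held in all 13 alternatives. Of 17 other haematopoietic growth factors and their receptors 6 were tested, 0 rose and 1 fell (median -0.11). The one that fell was the erythropoietin receptor EPOR, from 41.1 ± 3.82 to 26.4 ± 2.65 CPM.

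Upstream of these genes, 3 of 25 NF-kB subunits and regulators rose and 8 fell (median log2 change -0.01). For each gene list, the share over all tested genes was 16.1% called higher and 15.8% lower. The number of NF-kB genes that fell was 9 without Control replicate 3 or PM2.5 replicate 3. It was 5 without PM2.5 replicate 1, where calls of lower over all genes also went from 2365 to 1448. The adaptor kinase IRAK2 fell by 0.71 ± 0.10 on the log2 scale, the adaptor MYD88 by 0.69 ± 0.09 and the inhibitor NFKBIA, itself an NF-kB target, by 0.56 ± 0.10, while the nuclear cofactor NFKBIZ rose by 0.49 ± 0.09. Of 18 tested upstream cytokines and receptors 4 rose and 5 fell (median -0.09). The TNF receptor TNFRSF1B fell by 1.22 ± 0.10, IL1B by 1.38 ± 0.11 and IL1A by 0.68 ± 0.09, and IL11 rose by 0.96 ± 0.11. Of 13 C/EBP and AP-1 factors 4 rose and 3 fell (median 0.08), and 1 fell without Control replicate 1, PM2.5 replicate 1 or PM2.5 replicate 2. Without Control replicate 3 or PM2.5 replicate 3, 4 fell. CEBPB fell by 1.001 ± 0.12, FOSB rose by 1.01 ± 0.14 and CEBPG by 0.62 ± 0.12. DDIT3 rose by 0.77 ± 0.21, but by 0.47 without Control replicate 3, and was not called by DESeq2 (adjusted p = 0.0679).

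Of 15 proteins that bind or degrade mRNAs, AU-rich ones among them, 2 rose and 2 fell (median log2 change -0.02), and 6 fell without Control replicate 3. The ribonuclease ZC3H12A (regnase-1), which cuts cytokine mRNAs, fell from 105 ± 4.41 to 66.2 ± 7.11 CPM, and the poly(A) ribonuclease PARN from 10.3 ± 0.213 to 6.04 ± 1.14 CPM. HNRNPD (AUF1) rose by 0.29 ± 0.09 and RC3H1 (roquin-1) by 0.45 ± 0.15, calls that were both lost without Control replicate 1 (adjusted p = 0.105 and 0.12 in edgeR), without PM2.5 replicate 1 (0.0843 and 0.0847) and without PM2.5 replicate 2 (0.0536 and 0.132). The RC3H1 call was also lost with the replicate number as a block (adjusted p = 0.0505 in edgeR). Of 6 tested proteases that shed or cleave chemokines 2 rose and 1 fell (median 0.21). ADAM10, which releases CXCL16 and CX3CL1 from the membrane, rose from 58.1 ± 6.10 to 105 ± 17.3 CPM, MMP9 rose from 55.3 ± 3.14 to 89.6 ± 12.1 CPM, and MMP1 fell from 35155 ± 477 to 9982 ± 693 CPM.

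**Figure D5:**
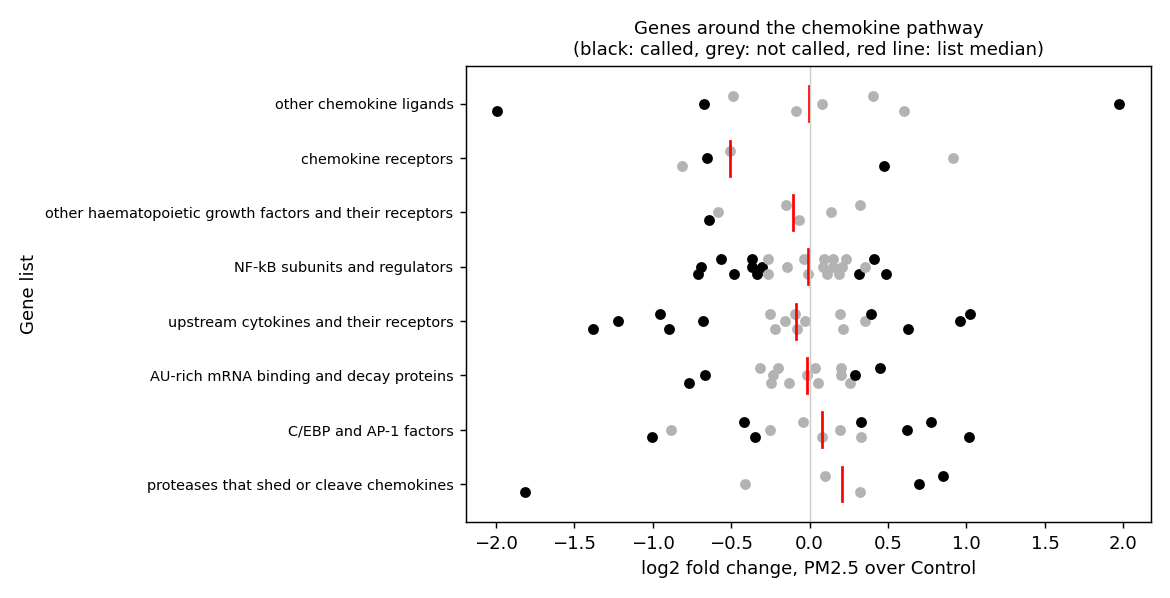
Log2 fold change of PM2.5 over Control for the tested genes of 8 lists around the chemokine pathway, with called genes in black, others in grey and a red line at each list's median. Each list holds genes on both sides of 0, from -1.99 (CCL3) to 1.97 (CX3CL1).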

How the data were processed

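Per the file headers, the deposited values are the authors' raw counts, with 1 column for each of 6 libraries. The submitters' processing notes name GRCh38. Alignment, counting and strand settings were not given in the sources used here. Start and end of each of the 58735 genes matched GENCODE release 29, which was used for shared 50-base words and exon overlap. Columns were assigned by title. Within a group, counts of replicates differed by more than sampling noise (chi-square per degree of freedom 5.74 to 36.3) and were kept apart.

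The test was edgeR's quasi-likelihood test (version 4.0.16, R 4.3.3) on genes passing filterByExpr (count minimum 10, total minimum 15), with TMM factors from 0.962 to 1.047 and group as the only term. Calls are at an adjusted p under 0.05 (Benjamini-Hochberg over 14975 genes), and the SE is the log2 change over the root of the F statistic, without sign. Gene lists were described by counts of calls and median log2 changes, and no list test was run. Alternatives were RLE scaling, total-count scaling, no filter, at least 1 CPM in 3 libraries, DESeq2 1.42.0, limma-voom (limma 3.58.1), a replicate block and each library left out. The fit was tested on simulated data for PM2.5 against Control (14975 genes, 200 changed), which recovered 50% of changes at 1.5-fold, 75% at 2-fold and 93.9% at 4-fold. In the data 31.9% of genes were called, and the simulation had no library that stood apart as Control replicate 3 does. These rates cover genes of all levels and are not the sensitivity for the members.

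The members and gene lists were chosen with earlier results of these data known. Named by rule were the members, up to 4 called genes of the smallest p in each list, the ligands' receptors, HMOX1 and the 3 genes most like each called member (log2 CPM, prior count 2). A few genes that this rule or the lists name are not reported here. Promoter sequences are RefSeq's. The planned protein identities were not computed, and sequence identities are of promoters (Biopython 1.88).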

Additional observations from a re-analysis of the deposited data

How the results depend on the processing

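The calls of CXCL8, CCL5, CXCL2 and CXCL3 kept their direction and stayed past the threshold in all 13 alternatives, and CXCL16 and CCL20 stayed short of it. The CSF3 call was lost with total-count scaling (-0.64) and DESeq2 (-0.63), and the cause was not tested. With each library left out in turn, the log2 change ran from 0.78 to 0.90 for CXCL8, 0.32 to 0.56 for CCL5, -0.98 to -0.63 for CXCL2, -0.95 to -0.47 for CXCL3, -0.85 to -0.31 for CSF3, -0.07 to 0.25 for CXCL1, -0.21 to 0.04 for CSF2, and -0.33 to 0.01 for CXCL1, CXCL2 and CXCL3 summed. CXCL1 changed sign in 4 of these (-0.0708, -0.0572, -0.00408 and -0.0252), CSF2 in 3 (0.0322, 0.00989 and 0.0355) and the sum in 1 (0.00984), none of them called. The genes called lower numbered 2 with DESeq2 and 2 to 3 with a library left out, the missing one being CSF3. In the chromosome 4 cluster and its flanks 1 gene was called higher, and 2 with the stricter filter, 2 with limma-voom and 1 to 2 with a library left out. Over all genes 2365 were called lower and 1448 to 2680 with a library left out, the fewest without PM2.5 replicate 1. Over all genes, deviations of same-numbered libraries correlated at -0.00158, -0.0508 and -0.122, which cannot settle whether the replicate numbers pair the samples. With the replicate block 1951 genes were called higher and 1826 lower, against 2410 and 2365, with the same 5 members called. The block narrowed the SE of CXCL1, CXCL2 (0.159 to 0.121), CXCL3 (0.182 to 0.138) and CSF3 (0.207 to 0.115). It widened that of CXCL8, CXCL16, CCL5, CCL20 and CSF2. The adjusted p of CSF3 in edgeR went from 0.0263 to 0.00508. The block also ended the calls of ACKR3 (adjusted p = 0.0674) and RC3H1 (0.0505) in edgeR. Where depth is low, as for CXCL16 and CCL2, small differences were not detectable.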
